A study of Mus musculus with 2 samples.

Results

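A pseudogene is a copy or remnant of a gene that the annotation does not take to encode the working protein. Of 13525 annotated pseudogenes, 227 had at least 5 long RNA reads summed over 2 libraries of mouse adrenal gland, and these 227, of 55536 annotated genes in all, are described here. They were chosen by their read counts, so their number and level are a description. The tissue was taken at 36 days of age from males of B6CASTF1/J, an F1 hybrid whose parent strains are C57BL/6J and CAST/EiJ, and the labels name no treatment. The libraries form 1 group (replicates 1 and 2), so no conditions are compared. Whether they stem from separate animals is unclear, because the animal numbers in the labels disagree, and their spread may include technical error alone.

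Processed pseudogenes arise when a messenger RNA is copied back into DNA and inserted elsewhere in the genome, which leaves a copy without introns, far from its source. Genes that are strongly and steadily transcribed, such as those for ribosomal proteins and glycolytic enzymes, are known as frequent sources. Unprocessed pseudogenes arise by duplication of a gene and keep its exons and introns, unitary ones are genes that lost their function without being copied, and polymorphic ones are intact in some strains. "Transcribed" in a type name records that annotators had evidence of RNA from that place.

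The members added up to 8287 of 452489 endogenous reads (1.83%, Wilson 95% interval 1.79 to 1.87) in replicate 1 and 8939 of 463210 (1.93%, 1.89 to 1.97) in replicate 2, a mean of 1.88% ± 0.0696 (SD, n = 2). Intervals here cover counting error only. A single read was worth 2.21 and 2.16 CPM (counts scaled to a fixed library total) in the 2 libraries. Markers of the adrenal cortex (6 of 6, summed 65850 and 53430 CPM) and of chromaffin cells (5 of 5, 10480 and 15400 CPM) were read in both libraries, as the tissue label says. Of 8 pancreas acinar markers, none was read in replicate 1 and their sum was 6172 CPM in replicate 2, and the 6 liver markers summed to 6.63 and 513.8 CPM.

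Few members carried most of the reads. The median member had 17 reads, 47 had at least 100, and the 5 with the most held 29.6% of member reads in replicate 1 and 25.7% in replicate 2. Reads in both libraries were found for 219 members. Another 325 pseudogenes had 1 to 4 reads, which came to 243 and 281 reads in all. Just inside the limit stood 22 pseudogenes with 5 reads, such as Rpl35a-ps4 (1 and 4 reads), and just outside it 26 with 4 reads, such as Ptges3-ps (2 and 2 reads).

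What the members looked like in sequence was not used to choose them. For each pseudogene the longest transcript typed as a pseudogene was taken, or the longest of any type where there was none. It was matched to all protein coding transcripts, and the best match over at least 50% of its length is called its coding relative. The reads of a member can lie on another of its forms, such as the 1846-base form at Ube2d-ps, where 441 bases were matched. A relative was found for 217 of the 227, and 169 of them were at least 99% identical to it over the matched stretch. Those 169 held 92.4% and 90.8% of member reads. The following windows of coding sequence show how little distinguishes the annotated stretches of the leading members from their relatives. Those stretches can be shorter than the relative's transcript, as at Gm12033 with 1002 bases against 1272 in the matched Gapdh transcript. Sequence beyond them was not compared, and differences between the parent strains were not looked at. An exact copy here is a pseudogene without a difference over its own annotated length. All are written 5′ to 3′ on the coding strand from GENCODE M21 transcripts (mm10), with the bases that differ in capitals, and coding bases are counted from 1 at the start codon.

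Gm12033, a copy of Gapdh, differed from it at 1 base in its whole length (chr11:20335471-20335550, minus strand, coding bases 464 to 543 of Gapdh).
Gm12033: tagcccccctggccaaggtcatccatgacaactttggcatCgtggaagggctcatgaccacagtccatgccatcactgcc
Gapdh: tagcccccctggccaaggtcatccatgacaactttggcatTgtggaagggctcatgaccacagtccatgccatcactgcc
Gm5559, another Gapdh copy, also differed at 1 base, at another place (chr5:95862058-95862137, plus strand, coding bases 345 to 424 of Gapdh).
Gm5559: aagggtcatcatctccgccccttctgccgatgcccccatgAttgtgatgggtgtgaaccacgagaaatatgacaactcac
Gapdh: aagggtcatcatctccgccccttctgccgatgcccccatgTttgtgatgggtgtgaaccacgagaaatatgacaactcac
Gm15459 differed from Hspa8 at 5 bases over 1941, 1 of them shown (chr5:5783403-5783482, minus strand, coding bases 74 to 153 of Hspa8).
Gm15459: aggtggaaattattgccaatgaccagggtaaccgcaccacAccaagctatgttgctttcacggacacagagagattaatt
Hspa8: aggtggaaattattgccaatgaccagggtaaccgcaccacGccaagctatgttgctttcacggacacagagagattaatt
Gm10123 and Ppia did not differ (chr9:96895658-96895737, plus strand, coding bases 1 to 80 of Ppia), so 1 line stands for both.
Gm10123 and Ppia: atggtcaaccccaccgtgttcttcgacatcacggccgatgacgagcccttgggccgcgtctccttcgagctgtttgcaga

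Rpl21-ps15 differed from Rpl21 at 3 bases, 2 of them in the window (chrX:151215254-151215333, minus strand, coding bases 317 to 396 of Rpl21).
Rpl21-ps15: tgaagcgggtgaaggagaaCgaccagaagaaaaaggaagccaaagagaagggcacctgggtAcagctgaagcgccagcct
Rpl21: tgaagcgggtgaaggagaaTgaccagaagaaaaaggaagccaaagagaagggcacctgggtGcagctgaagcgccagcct
Rps19-ps6, the member among the 15 with the most reads that had the lowest identity, differed from Rps19 at 5 bases, 3 of them in the window (chr12:110898450-110898529, plus strand, coding bases 337 to 416 of Rps19).
Rps19-ps6: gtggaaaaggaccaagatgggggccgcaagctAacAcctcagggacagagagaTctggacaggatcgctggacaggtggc
Rps19: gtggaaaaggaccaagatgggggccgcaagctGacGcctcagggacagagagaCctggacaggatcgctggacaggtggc
Rps4l was among the members least like their relatives, with 157 differing bases and 3 gap positions against Rps4x (chr6:148354745-148354824, plus strand, coding bases 36 to 115 of Rps4x).
Rps4l: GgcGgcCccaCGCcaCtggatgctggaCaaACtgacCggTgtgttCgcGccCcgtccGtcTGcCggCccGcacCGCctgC
Rps4x: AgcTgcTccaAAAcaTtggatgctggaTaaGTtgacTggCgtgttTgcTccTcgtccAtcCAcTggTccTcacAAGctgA

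Processed pseudogenes made up most of the members. The 173 members of the processed type held 7323 and 7511 reads, and the 24 transcribed processed ones 622 and 820. Together these 2 types had 94.5% of member reads as a mean of the libraries. The unprocessed type had 10 members with 232 and 475 reads, and the transcribed unprocessed type 10 members with 61 and 62 reads. The 4 polymorphic pseudogenes had 28 and 36 reads, the 4 members typed only as pseudogene 17 and 24, and the 2 transcribed unitary ones 4 and 11. Read against the annotation, 1.74% of 9941 processed pseudogenes were members, against 8.11% of 296 transcribed processed, 0.379% of 2642 unprocessed and 3.95% of 253 transcribed unprocessed pseudogenes. None of the 208 annotated immunoglobulin and T cell receptor pseudogenes had a read.

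Processed pseudogenes with reads were closer in sequence to a coding gene than those without. Of 9707 processed pseudogenes of either type with a coding relative, 196 were members, and their median identity was 99.7% (quartiles 99.2 and 100). The 9250 with no read had a median of 88.3% (quartiles 80.6 and 94.0). Below 80% identity 3 of 2181 were members (0.138%), from 99 to under 100% 109 of 434 (25.1%), and at 100% 50 of 152 (32.9%). Where the relative itself had at least 100 reads, the share reached 77 of 181 (42.5%) from 99 to under 100% and 34 of 64 (53.1%) at 100%, against 3 of 1103 (0.272%) below 80%. The members' median length, 483 bases, was close to the 521 bases of those without a read, and the relatives' median reads, 232 and 88, were further apart. High identity did not bring reads everywhere: 346 processed pseudogenes at 99% or more had none, and the median reads of their relatives was 31, against 229 for the 159 members at that identity.

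**Figure D1:**
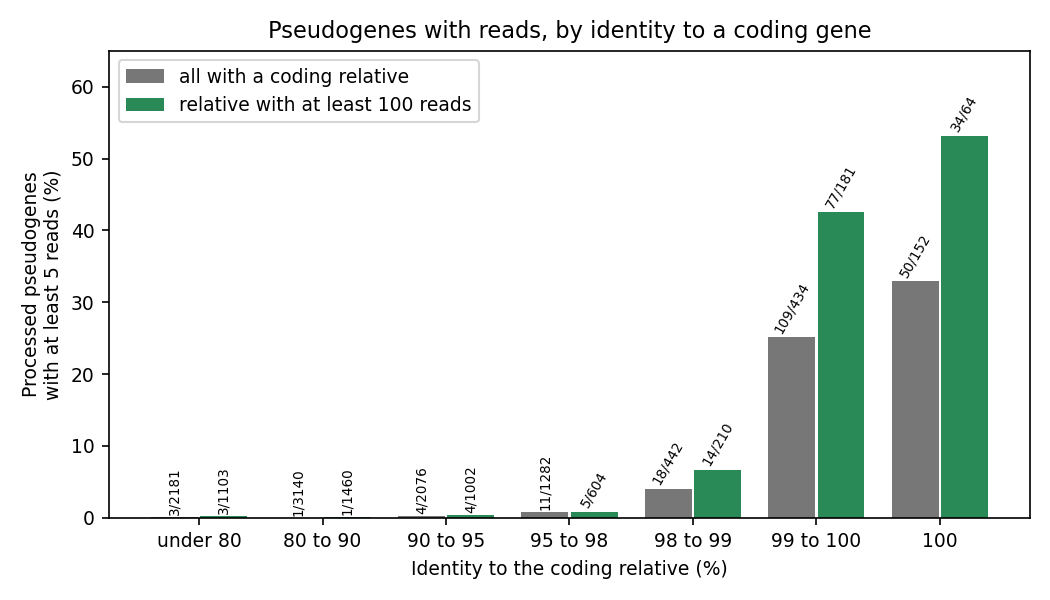
Share of annotated processed pseudogenes (both processed types) that had at least 5 reads summed over the 2 libraries, in percent, by identity to the best matching coding transcript, with the number of members and of pseudogenes above each bar. Grey bars take all 9707 pseudogenes with a coding relative and green bars those whose relative had at least 100 reads. Bars stay under 1% up to 98% identity and are highest at 100%.

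Members also more often held a long open frame. An open frame here is a stretch without a stop codon in any forward frame, with no start codon required. Whether it was the relative's own frame was not checked. Its length reached at least 95% of the relative's codon number in 163 of the 196 processed members (83.2%). The same held for 44.4% of those with 1 to 4 reads and 11.4% of those with none. The matched stretch took in the relative's whole coding sequence in 165 members (84.2%), against 23.4% of processed pseudogenes with no read. At 99% identity or more, 146 of 159 members and 163 of 346 pseudogenes without reads held an open frame of that length. An open frame does not show that a protein is made.

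The relatives of the members were many genes, with ribosomal protein genes frequent among them. A relative is the best match among genes typed protein coding, and it need not be the source of the copy. Eno1b, the relative of 1 member, had 307 and 280 reads, none of them in multi-exon models. The 217 members had 167 different coding relatives, of which 136 were the relative of 1 member and 31 of 2 or more. Of 130 listed genes that are known as frequent sources of processed pseudogenes, 67 were the relative of a member, and 109 members with 6347 and 6723 reads had such a relative. Ribosomal protein genes alone were the relatives of 87 members, with 3339 and 3781 reads. Among the 196 processed members with a relative those 87 are 44.4%, against 24.1% of all 9707 processed pseudogenes with one, and the listed genes make up 55.6% against 35.7%. No test was made of these shares. The largest groups of copies, and the division of reads within them, are given below.

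Gm15459 (ENSMUSG00000100801.1), on chromosome 5 (5781615 to 5783555, minus strand, mm10), led the members. It is a single-exon copy of Hspa8, which encodes the constitutive heat shock cognate chaperone, and its place lies across an exon of Gm26825 on the opposite strand. Its reads were 1195 in replicate 1 and 604 in replicate 2, a level of 1972 ± 945.4 CPM (SD, n = 2). Hspa8 had 1331 and 659 reads, so that Gm15459 held 47.3% (45.4 to 49.3) and 47.8% (45.1 to 50.6) of the pair. Gene and copy were both lower in replicate 2, and the division between them was the same within counting error.

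Gm10123 (chromosome 9, 96895658 to 96896147) matches Ppia, the peptidyl-prolyl isomerase cyclophilin A, without a difference. The match covers its own 490 bases, within a Ppia transcript of 1170 bases, and does not take in the whole coding sequence. Gm10123 had 566 and 632 reads, and Ppia 630 and 701. Its share of the pair, 47.3% (44.5 to 50.2) and 47.4% (44.7 to 50.1), did not move between the libraries beyond counting error.

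The next 3 members were copies of Gapdh, the glycolytic glyceraldehyde-3-phosphate dehydrogenase. Gm12033 (chromosome 11, 20335012 to 20336013) had 297 and 357 reads, Gm5559 (chromosome 5, 95861714 to 95862715) 270 and 299, and Gm12671 (chromosome 4, 91851668 to 91852669), identical to Gapdh over its 1002 bases, 123 and 406. Gapdh itself had 11 reads in each library. The first pair of copies were alike in the libraries, whereas Gm12671 was 3.22 times higher in replicate 2. With the reads of an adjoining model, described below, Gm12671 had 432 and 564 reads.

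Below them came copies of ribosomal protein genes. Gm10243 (Rpl35a) had 226 and 277 reads, Rpl37rt (Rpl37) 217 and 275, and Rps19-ps6 (Rps19) 194 and 242. Gm8172 (Rps6) had 218 and 198 reads, Rps2-ps13 (Rps2) 197 and 181, and Rpl3-ps1 (Rpl3) 200 and 163. For these 6 the libraries differed by less than 1.5 times, and none was called, where a call needs an adjusted p below 0.05 by Fisher's exact test and a 2-fold difference, and 3.16% of all genes tested were called. Gm9843, an exact copy of Fau, which encodes a ubiquitin-like protein fused to a ribosomal protein, had 140 and 189 reads. Gm14303 (Rps29) stood out in this group with 217 and 79 reads (217 and 316 with an adjoining model, described below), and Rpl21-ps15 (Rpl21) had 103 and 192. Gm12338, an exact copy of Cox7c, a subunit of cytochrome c oxidase, closed the leading 15 with 118 and 139 reads.

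**Figure D2:**
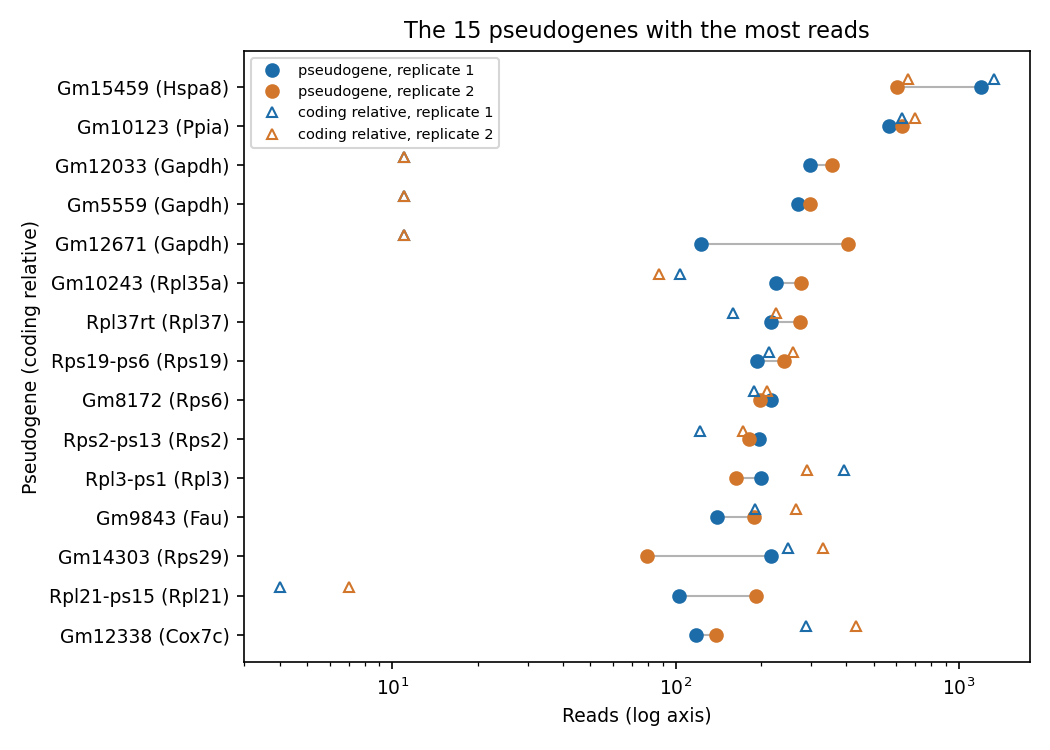
Reads of the 15 members with the most reads (filled circles) and of their coding relatives (open triangles) in replicate 1 (blue) and replicate 2 (orange), on a log axis. The Gapdh and Rpl21 copies lie far to the right of their coding genes, whereas Gm15459 and Gm10123 lie beside theirs.

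Another 32 members had at least 100 reads summed, and 30 of them were at 99% identity or more, the exceptions being the unprocessed Cyp21a2-ps and Amy2b. Ribosomal protein genes were the relatives of 15. Beside them stood copies of genes with other roles, named here after their values were seen. Mpc1-ps (Mpc1, a subunit of the mitochondrial pyruvate carrier) had 115 and 132 reads, Gm12138 (Akr1b3, aldose reductase) 125 and 95, and Gm10698 (Tmed2, a cargo receptor of the early secretory pathway) 125 and 94. Eif4a-ps4 (Eif4a1, an RNA helicase of translation initiation) had 126 and 65 reads, and Gm14539 (Usmg5, a small ATP synthase subunit) 65 and 95. None of these 5 was called. Eif4a-ps4 had an adjusted p of 0.000166 by Fisher's exact test with Benjamini-Hochberg adjustment, at a log2 difference of -0.98, just inside the 2-fold limit of the call.

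Most relatives outnumbered their copies, and some did not. Of the 217 members with a relative, 182 had fewer reads than it in both libraries and 24 had more in both. Fewer than 10% of the relative's reads were on 96 of them. Summed over the members of each relative, 20 relatives had fewer reads than their copies in both libraries.

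The relatives that recurred for the most members were Gapdh (10 members), Rpl35a (6) and Rpl21 (4), followed by 5 genes with 3 members each, Rps2, Rpl17, Rps27a, Cdh11 and Rpl23a. Gapdh has 236 annotated pseudogenes that match it best, 22 of them at 99% identity or more. The 10 Gapdh copies among the members, all at 99% or more, had 865 and 1294 reads, which is 98.7% (97.8 to 99.3) and 99.2% (98.5 to 99.5) of the reads on gene and copies. In the coding gene 9 and 8 of the 11 reads were in models with more than 1 exon. Behind the leading 3 copies came Gm7336 (99 and 122 reads) and Gm13394 (55 and 89), and the other 5 had from 6 to 12 reads summed. Gm10359 has the same annotated sequence as Gm12671 and had 5 and 7 reads, so equal annotated sequence did not go with equal reads. Sequence beyond the annotated ends was not compared.

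Rpl35a, a protein of the large ribosomal subunit, showed the same unevenness. Its 6 copies had 294 and 369 reads against 104 and 87 in the gene, a share of 73.9% (69.3 to 77.9) and 80.9% (77.1 to 84.3). Among them, 5 have 1 and the same annotated sequence. Gm10243 held 226 and 277 reads, Rpl35a-ps2 43 and 40, Rpl35a-ps6 13 and 21, Rpl35a-ps3 9 and 18, and Rpl35a-ps4 1 and 4. The 5 stood in the same order in each library.

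Rpl21 had 4 and 7 reads, all in multi-exon models, and its 4 copies 241 and 305 reads, or 98.4% (95.9 to 99.4) and 97.8% (95.4 to 98.9). Rpl21-ps15 and Gm13370 (107 and 81 reads) carried most of them. Gm10240, with the annotated sequence of Gm13370, had 6 and 6 reads. Rpl17 had 13 and 11 reads and its 3 copies 99 and 93, a share of 88.4% (81.1 to 93.1) and 89.4% (82.0 to 94.0), led by Rpl17-ps5 with 75 and 79 reads. Rps2 was more evenly divided, with 122 and 173 reads on the gene and 210 and 206 on 3 copies. For Rps27a and Rpl23a the gene held most of the reads, and the copies 14.3% (10.8 to 18.7) and 12.9% (9.73 to 16.8) of Rps27a and 11.1% and 10.4% of Rpl23a. The Cdh11 copies had 23 and 18 reads against 2 and 2.

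Other exact copies shared reads more evenly. Gm10231 and Gm10175 are both exact copies of Atp5g2, a subunit of the mitochondrial ATP synthase, and had 59 and 101, and 55 and 72 reads, beside 81 and 111 on the gene. Gm11518 and Rpl27-ps3 likewise match Rpl27 without a difference, and had 66 and 92, and 47 and 56 reads. These further copies were chosen for description after their values were seen.

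**Figure D3:**
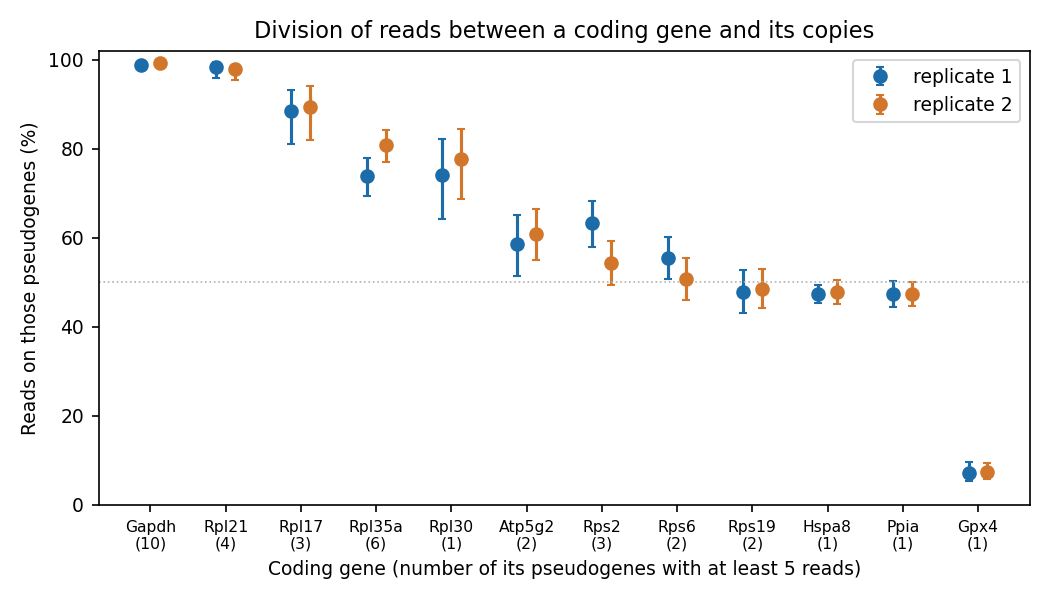
Percent of the reads on a coding gene and its member copies that lay on the copies, in replicate 1 (blue) and replicate 2 (orange), with Wilson 95% intervals. The number in brackets is the number of member copies, and the dotted line marks equal division. Gapdh, Rpl21 and Rpl17 lie highest in both libraries, Hspa8 and Ppia near the line, and Gpx4 at 7.2% and 7.5%.

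The sources used here do not say how the authors' alignment chose between places of near-identical sequence. The reads of every member at 99% identity or more, and of its relative, are therefore uncertain as levels of that place.

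Among the leading transcribed processed members were Rpl37rt, Gm15500 (Rpl5, 79 and 98 reads), Gm10175 and Gpx4-ps2 (44 and 62 reads). Gpx4 is the phospholipid hydroperoxide glutathione peroxidase, and its copy, at 99.6% identity, held 7.2% (5.41 to 9.53) and 7.5% (5.89 to 9.49) of the reads of the pair. Over all 169 members at 99% identity or more, the share of the pair ran from 0 to 100% in each library, with medians of 15.8% and 15.4%.

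Read classes tell how a read fits the annotation. A Known read fits an annotated transcript; an ISM read holds part of its junctions; NIC and NNC reads join known, or at least 1 new, splice sites; and a Genomic read overlaps a gene without following its exons. In the members 98.0% (97.6 to 98.3) and 98.2% (97.9 to 98.5) of reads were Known, a mean of 98.1% ± 0.192 (SD, n = 2), against 78.9% and 77.9% in protein coding genes. ISM reads made up 0.358% of member reads as a mean of the libraries, against 8.8% in coding genes, and Genomic reads 0.605% against 5.63%. For 191 members every read lay in a single-exon model. A Known label on such a read rests on its position alone, with no junction to check it, and read lengths and ends are not in the tables. The ISM, NIC and NNC classes are defined by junctions, so single-exon models leave little room for them. In the 2 processed types 99.7% of reads were Known in each library. The shares in coding genes were not matched for exon number, so the comparison with them is not like with like.

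In the unprocessed and transcribed unprocessed types, Known reads were 179 of 293 (61.1%, 55.4 to 66.5) in replicate 1 and 446 of 537 (83.1%, 79.6 to 86.0) in replicate 2. NIC reads there were 18.1% and 5.4%, mostly from Cyp21a2-ps. The 4 members typed only as pseudogene had Genomic reads alone, led by B330016D10Rik with 11 and 11. The others were A930035D04Rik (2 and 7 reads), Gm3608 (3 and 2) and Gm9812 (1 and 4).

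Reads in multi-exon models came to 215 (2.59%) and 323 (3.61%) of member reads. They lay mostly on Cyp21a2-ps, Amy2b, Hyi, Mx2 and 2610005L07Rik. Cyp21a2-ps (ENSMUSG00000092471.1; chromosome 17, 34719813 to 34722252, minus strand) is the duplicate of Cyp21a1, the steroid 21-hydroxylase of the adrenal cortex, and overlaps an exon of Tnxb on the opposite strand. It was the only member whose relative was among 13 listed genes of steroid synthesis; 2 copies of Hsd3b1, Gm12427 and Gm12431, had 1 read and none. Cyp21a2-ps had 114 and 64 reads, all in multi-exon models, at 195.1 ± 80.45 CPM (SD, n = 2). The annotated form of 9 exons had 38 and 20 reads. A form with 8 exons and at least 1 new splice site, reaching beyond the annotated 3′ end, had 13 and 12 reads, and an 8-exon form of known sites 12 and 5. In all, 39 multi-exon models were read and 16 of them occurred in both libraries. The 39 include ISM models, which hold only part of the annotated junctions, and many of the 39 had a single read.

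Cyp21a1 had 6639 and 5343 reads, so that the pseudogene held 1.69% (1.41 to 2.02) and 1.18% (0.928 to 1.51) of the pair. The matched stretch, 85.5% of the pseudogene transcript, had 97.4% identity with 30 differing bases and 1 gap position, more differences than in any of the 15 leading members. The window below has 6 of them (chr17:34719834-34719913, minus strand, coding bases 1373 to 1452 of Cyp21a1).
Cyp21a2-ps: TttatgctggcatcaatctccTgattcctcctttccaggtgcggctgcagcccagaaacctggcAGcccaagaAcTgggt
Cyp21a1: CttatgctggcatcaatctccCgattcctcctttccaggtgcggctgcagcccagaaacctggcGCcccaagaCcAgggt
Its log2 ratio of replicate 2 to replicate 1 was -0.86 (adjusted p = 0.00257 by Fisher's exact test with Benjamini-Hochberg adjustment), under the 2-fold limit for a call, and that of Cyp21a1 was -0.35.

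Other spliced members were few-read genes. Hyi, a polymorphic pseudogene in the annotation and a hydroxypyruvate isomerase homologue, had 12 and 20 reads, 12 and 18 of them in multi-exon models. Mx2, an interferon-induced GTPase that laboratory strains are known to carry in damaged form, had 9 and 11 reads, 6 and 9 of them in the annotated 14-exon form. Which parent strain's copy of Mx2 gave these reads was not determined. Atp10d (3 and 3) and H2-Ea-ps (4 and 2 reads) were the other polymorphic ones. Among transcribed unprocessed members, Scp2-ps2 led with 12 and 23 reads in single-exon models, followed by 2610005L07Rik (15 and 9), Ube2d-ps (8 and 9), Gm20257 (5 and 6) and Gm19196 (4 and 3). The transcribed unitary members were Thap6 (4 and 4) and Zfp133-ps (0 and 7 reads). Of these, the ones with at least 10 reads summed were tested between the libraries and none was called.

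Few members stood far from every coding gene in sequence. Those with a relative at under 95% identity numbered 15 and had 78 and 73 reads, of which 37 and 42 were in multi-exon models; 10 of the 15 had such reads, against 13 of the 169 at 99% or more. Rps4l, whose window against Rps4x is printed above, had 12 and 12 reads at an identity of 79.8%, which was 5.58% and 5.09% of the pair's reads. 2810025M15Rik (Rpl37a, 78.8% identity) had 5 and 7 reads, 4 and 7 of them in its annotated 3-exon form. Cdh11, a cadherin, was the relative of 2610005L07Rik at 93.2% identity, and had 2 and 2 reads itself against 15 and 9 at the pseudogene. The 10 members without a relative had 49 and 72 reads in all, and among them Magef1, of a family of ubiquitin ligase regulators, had 0 and 8.

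Copies of mitochondrial genes formed a block on chromosome 1. Nuclear insertions of mitochondrial DNA are known in many genomes, and 4 unprocessed members lie side by side there on the minus strand between positions 24613189 and 24616197. Gm28437 (mt-Co3, exact over 783 bases) had 34 and 49 reads, Gm10925 (mt-Atp6, exact over 678) 24 and 52, and Gm28661 (mt-Co2, exact over 681) 23 and 46. Gm29216 (mt-Co1, 1 difference in the matched stretch) had 25 and 90 reads. All 4 were higher in replicate 2, as was Gm13340, a 1545-base copy of mt-Co1 on chromosome 2 with 1 and 15 reads and 97.6% identity. The 13 mitochondrial protein coding genes had 422 and 823 reads, and the 5 copies 107 and 252. The 1 base by which Gm29216 differs lies near the start of this window (chr1:24616109-24616188, minus strand, coding bases 1063 to 1142 of mt-Co1).
Gm29216: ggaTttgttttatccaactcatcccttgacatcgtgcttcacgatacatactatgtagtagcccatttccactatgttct
mt-Co1: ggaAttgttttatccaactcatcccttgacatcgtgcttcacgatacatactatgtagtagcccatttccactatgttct

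Positions of the members were less often between genes than those of all annotated pseudogenes. Of 227 members, 133 (58.6%) lay between genes, against 73.6% of 13525 pseudogenes. Exons of another gene on the opposite strand were overlapped by 23 members (10.1%, against 2.88%), and on the same strand by 8 (3.52%, against 2.02%). Introns held 24 members on the gene's strand and 39 on the opposite strand. Chromosome 5, with Gm15459 and Gm5559, had 19.2% of member reads, chromosome 9 11.3% and the X chromosome 10.6%; the Y chromosome, with 810 pseudogenes, had 1 member, Gapdh-ps15, with 3 and 5 reads. No test was made of these shares.

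The libraries were compared gene by gene with Fisher's exact test on reads, adjusted over all 8135 annotated genes with at least 10 reads. Calls required an adjusted p below 0.05 and, once 1 CPM was added, a difference of at least 2-fold. The test compares these libraries only. Of the 149 members with at least 10 reads, 13 were called (8.72%), against 257 of all genes tested (3.16%). Higher in replicate 2 were 6 members, where the background was 1.45%, and higher in replicate 1 were 7, where it was 1.71%. The tested members had a median of 36 reads and all tested genes 37. Their median log2 ratio was 0.21, against -0.03 over all genes, and 94 of the 149 were higher in replicate 2. The 126 tested genes from the list of frequent sources had a median of 0.22, so the shift was not particular to the members.

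Of the 7 higher in replicate 1, Gm15459 was 2.03-fold higher (exact 95% interval 1.84 to 2.24), as described above beside Hspa8. Gm14303 had 217 and 79 reads (2.81-fold, 2.16 to 3.69), while its relative Rps29 had 249 and 331. With the 237 reads of an adjoining model in replicate 2, described below, Gm14303 had 217 and 316, which ended the call and turned its direction. Gm10774, a copy of the RNA polymerase subunit gene Polr2l that lies in an exon of Usp50, had 120 and 59 reads (2.08-fold, 1.51 to 2.89), and Polr2l 277 and 277. Its call also ended with an adjoining model, at 124 and 120 reads. Counted without adjoining models, Gm15459 alone of these 3 moved as its relative did.

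Gm15801, an exact copy of the phosphatase gene Ptp4a1, had 84 and 34 reads (2.53-fold, 1.68 to 3.89), and Ptp4a1 279 and 153. Gm6969, a copy of Cox7a2l, had 30 and 8 reads (3.84-fold, 1.72 to 9.69) against 44 and 55 in the gene. Gm7334, an exact copy of the antiproliferative gene Btg3, had 18 and 4 reads (4.61-fold, 1.52 to 18.7). Gm13857, whose place overlaps Akr1b7 on the opposite strand, had 10 and 0 reads, which puts it at least 3.41-fold above replicate 2, taking 3 counts there as the floor. The last 3 rest on few reads. The calls of Gm15459 and Gm7334 were lost with edgeR's TMM factors and with DESeq2's size factors, Gm15459 because its log2 ratio went from -1.02 to -0.98 with either, under the 2-fold limit. For Gm7334 the log2 ratio was -2.05 with either, against -2.08, and the adjusted p by Fisher's exact test was 0.0624 and 0.0657, against 0.0386.

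Of the 6 higher in replicate 2, Gm12671 had 123 and 406 reads (3.22-fold, 2.63 to 3.98), a call that ended when its adjoining model was counted. Hsp25-ps1, a copy of the small heat shock protein gene Hspb1 with 4 differing bases, had 17 and 76 reads (4.37-fold, 2.56 to 7.88), and Hspb1 158 and 260. Its share of the pair went from 9.71% (6.15 to 15.01) to 22.6% (18.5 to 27.4), so the copy differed more than the gene. Of its 4 differing bases, 3 lie in this window (chr13:45078513-45078592, minus strand, coding bases 536 to 615 of Hspb1).
Hsp25-ps1: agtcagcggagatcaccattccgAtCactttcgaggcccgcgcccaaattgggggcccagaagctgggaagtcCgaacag
Hspb1: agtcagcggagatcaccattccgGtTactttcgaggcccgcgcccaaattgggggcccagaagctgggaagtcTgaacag

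Gm29216 was 3.52-fold higher (2.24 to 5.72) in replicate 2, Gm10925 2.12-fold (1.28 to 3.59; not called when no minimum was set on reads) and Gm13340 14.7-fold, from 1 and 15 reads (2.25 to 617). The mitochondrial genes they match were higher in replicate 2 as well, mt-Co1 with 169 and 248 reads and mt-Atp6 with 25 and 48, and neither was called. The reverse held for mt-Co2, which was called (15 and 40 reads, log2 ratio 1.355), while its exact copy Gm28661 was not (23 and 46 reads, 0.9526). Amy2b, an unprocessed amylase pseudogene in the annotation (chromosome 3, 113147656 to 113156727), had 0 and 147 reads, at least 47.9-fold higher, and 130 of its reads were in the annotated 10-exon form. Its relative Amy2a2, a pancreatic amylase, had 0 and 288 reads. The 8 pancreas markers summed to 0 and 2859 reads; the part of pancreatic tissue in this difference was not tested. Without Amy2b, 12 members were called.

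Between pseudogene and relative, the ratio of the libraries went the same way in 71 of 101 pairs with at least 20 reads on both sides. Points are not independent, since copies of 1 gene share its value. In 8 of the 217 pairs the intervals of the pseudogene's share did not overlap between the libraries. They were Rps2-ps13, Gm14303, Gm10774, Gm29216, Hsp25-ps1, Gm6969, Gm13340 and Gm13857. Amy2b and Amy2a2 had no read in replicate 1, so their pair could not be compared. The shares leave out the reads of adjoining models, described below, which ended the calls of Gm14303 and Gm10774.

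**Figure D4:**
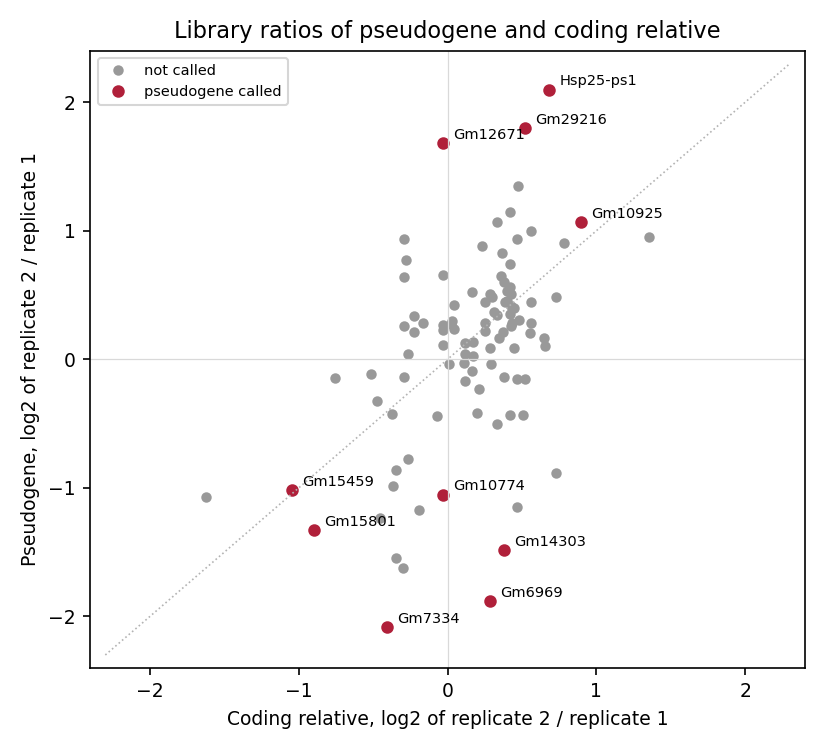
Log2 ratio of replicate 2 to replicate 1, with 1 CPM added, of pseudogene members (vertical) and of their coding relatives (horizontal), for pairs with at least 20 reads on both sides; called members are red and the dotted line marks equal ratios. Gm15459 lies on the line, and Gm12671, Gm14303 and Gm10774 lie far from it near or beyond zero on the horizontal axis. Amy2b, at 9.28 and 8.31, is outside the axes and not drawn.

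For 5 of the 13 called members, reads of models that adjoin or overlap theirs were listed under another gene, and counting those reads ended 3 of the calls. Besides annotated transcripts, the authors' model files hold models added from the reads. Models of other genes on the same strand that shared at least 1 base with the leading model of a member were found at 34 members, with 451 and 602 reads. Of 38 such models, 31 shared exactly 1 base, the last base at the 3′ end of the pseudogene, and these held 1045 of the 1053 reads. They extend downstream of the annotated end. The 2 called members that stayed called had few such reads, Gm6969 5 in replicate 1 and Gm13340 1 and 1.

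At Gm12671 an added intergenic model of 181 bases (chromosome 4, 91851488 to 91851668) held 309 and 158 reads. Pseudogene and adjoining model together had 432 and 564 reads. At Gm14303 such a model of 90 bases (chromosome 2, 172509432 to 172509521) had 237 reads in replicate 2 and was not listed in replicate 1, and the sums were 217 and 316. At Gm10774 a Genomic model of Usp50, 259 bases long (chromosome 2, 126709096 to 126709354), had 4 and 61 reads, and the sums were 124 and 120. With these reads added, none of the 3 was called, at log2 ratios of 0.35, 0.51 and -0.08, and 10 members were called in all. For Gm14303 the sum was higher in replicate 2, against the direction of the pseudogene alone. For each of the 3 the ratio of the sums was closer to that of its relative, Gapdh, Rps29 or Polr2l, than the ratio of the pseudogene alone. The 3 are singled out because the added reads ended their calls, and none of these relatives was called, so this is a description only. Among the members that stayed called, Gm6969 moved away from its relative Cox7a2l (log2 ratio -1.88 to -2.10, relative 0.29). Gm13340 moved closer to mt-Co1 (3.38 to 2.71, relative 0.52).

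**Figure D5:**
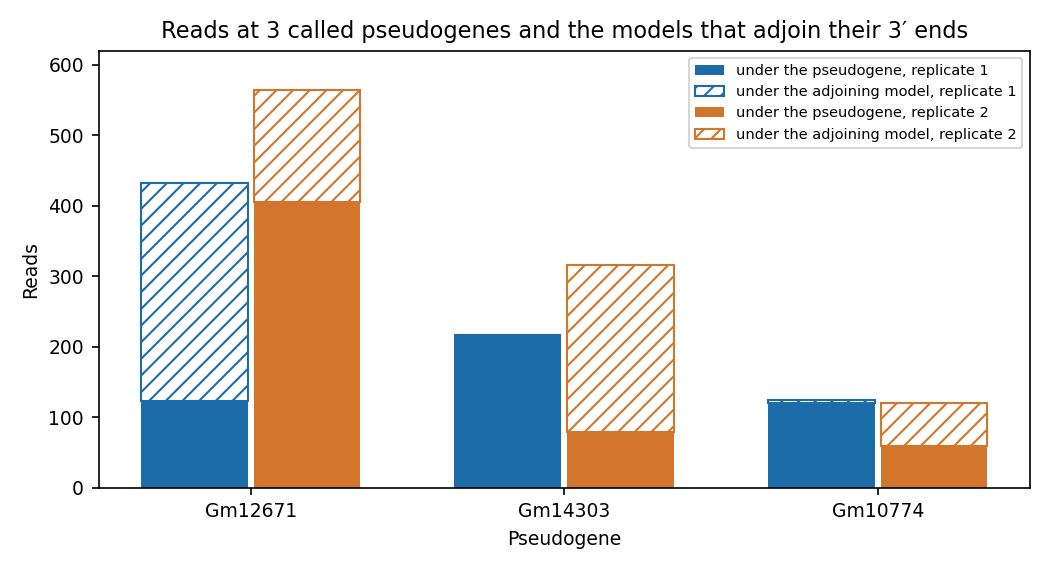
Reads under 3 called pseudogenes (solid) and under the model of another gene that adjoins the 3′ end of each (hatched), in replicate 1 (blue) and replicate 2 (orange), stacked from 0. The sums are 432 and 564 for Gm12671, 217 and 316 for Gm14303, and 124 and 120 for Gm10774.

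The added reads also raised the Gapdh copies to 1177 and 1457 reads. Oaz1-ps, with 6 and 1 reads, adjoined a Genomic model of AC154200.1 with 63 and 52 reads, and Gm9755, with 19 and 8 reads, an added model with 20 reads in replicate 2 alone. Counted with them, the members' share of endogenous reads was 1.93% and 2.06%.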

How the data were processed

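The libraries are long-read RNA sequencing of mouse adrenal gland. The authors deposited, per library, whole-read counts per transcript model from the program TALON and the models on mm10 with GENCODE M21, per the file headers; aligner and program versions: not given in the sources used here. Spike-in reads (5512 and 15792) were left out, and 452489 and 463210 reads remained. Models of a gene were summed. Members were pseudogenes by gene type with at least 5 reads summed; members and lists were chosen with earlier results of these data known. Coding relatives were found with blastn 2.17.0 (E-value 1e-10) among M21 transcripts. Shares have Wilson 95% intervals. Fisher's exact test (scipy 1.17.1, two-sided) was run on genes with at least 10 reads and adjusted by Benjamini-Hochberg, and was checked on simulated counts. Alternatives used edgeR 4.0.16 and DESeq2 1.42.0 factors. Genes are named by 1 rule: the 15 members with the most reads, the 5 with the most in each type, every called member, the 5 with the most multi-exon reads, steroid gene relatives, and the 5 most recurrent relatives, ties in number included; others were chosen after their values were seen; 1 gene that the rule names is not reported here.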

Additional observations from a re-analysis of the deposited data

How the results depend on the processing

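The 227 members became 149 with at least 10 reads as the limit; with 3 reads they were 276, by transcript type 233, and with 1 library left out 153 to 157. Their share of endogenous reads, 1.88%, was 2.3% over full-length classes (Known, NIC and NNC) alone, since other classes then leave the total; leaving out 1 library gave 1.83% to 1.93%. Without the 5 members with the most reads, the Known share went from 98.1% to 97.4% and the share on processed types from 94.5% to 92.5%. The 13 calls became 11 with no minimum, a minimum of 20 reads, TMM factors or size factors, and 9 over full-length classes, where Gm15459, Gm10774 and Gm7334 were lost and Gm13857 was not tested. They stayed at 13 with 0.5 or 2 CPM added. Alternatives chosen after seeing the data left 12 calls without Amy2b, 11 without members whose relative was called the same way, and 10 with the reads of adjoining models added. With those reads added, Gm14303 turned from -1.49 to 0.51 on the log2 scale. No other called ratio changed direction under the alternatives run. With no minimum on reads, Gm10925 and Gm7334 were not called (adjusted p by Fisher's exact test 0.0621 and 0.0742). A coding relative was found for 216 members at 80% cover. No paired analysis was possible because there is 1 group. With 1 library on each side, members of few reads could not be told apart between the libraries unless the difference was several-fold.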
